A study of Mus musculus with 39 samples.

Results

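The genes of respiratory complex I were read in 20 libraries of CD8 T cells sorted from mouse tumours and in 19 libraries labelled bulk tumour. The members are the gene symbols that begin with Ndufa, Ndufb, Ndufc, Ndufs or Ndufv, leaving out pseudogene symbols, with a mean of at least 1 TPM in either set, where TPM is a level per transcript length scaled to a fixed total per library. Of 47 symbols with such a name, 45 are members, out of 28023 symbols in each table. They are 7 core subunits, 29 accessory subunits, 8 assembly factors (Ndufaf1 to Ndufaf8) and Ndufa4, which carries a complex I name but is now placed in complex IV. Ndufab1-ps was left out by its name. Ndufa4l2 was left out by its level, with a mean of 0.585 TPM over the CD8 libraries (from 0 to 2.81) and 0.434 TPM in the other set (from 0 to 6.50), where it was listed at 0 in most libraries. The members nearest that level were Ndufaf7, with a mean of 10.2 TPM in the CD8 set, and Ndufaf1, with 7.88 TPM in the other.

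All mice were wild-type C57BL/6 mice that received a transplant of human volunteers' stool (FMT) and, 2 weeks later, an injection of MCA-205 fibrosarcoma cells under the skin. The stool came from an arm with CZA together with DAV132 or from an arm with CZA alone, each for 6 days. CZA is the labels' abbreviation for an antibiotic treatment, and DAV132 is a colon-targeted adsorbent. When tumours measured 25 to 35 mm2, treatment began with anti-PD-1 antibody or an isotype control antibody (250 µg, 4 doses at intervals of 3 days), and tumours were taken 2 days after it ended. In the CD8 set there were 5 libraries each for CZA+DAV132 with anti-PD-1, CZA+DAV132 with isotype, CZA with anti-PD-1 and CZA with isotype. In the set labelled bulk tumour the numbers in the same order were 5, 4, 5 and 5. The CD8 cells came from a repeat of the experiment with the same stool samples. The labels do not tie a library to a mouse of its own, so the spread behind each p-value is that between libraries and may be partly technical. The labels do not say how many stool donors each arm had, and every comparison shares a group with another.

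Complex I is the first enzyme of the mitochondrial respiratory chain. It takes electrons from NADH, passes them along a flavin and a row of iron-sulphur clusters to ubiquinone, and pumps protons across the inner membrane. The core subunits that carry this chemistry are encoded partly in the nucleus (Ndufs1 and Ndufv1 among them) and partly in mitochondrial DNA (the mt-Nd genes). The accessory subunits surround and stabilise them, and assembly factors build the complex without staying in it. T cells raise respiration and mitochondrial mass when they are activated, and exhausted T cells in tumours are known for reduced mitochondrial fitness.

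The libraries differed in ways that bear on every level below. Entries made of simple or satellite repeats held 12.0% to 72.3% of all TPM in the CD8 libraries of CZA+DAV132 with anti-PD-1, against 2.38% to 8.61% in CZA+DAV132 with isotype, and the means were 29.5% ± 24.8 and 4.40% ± 2.69 (SD, n = 5 each; two-sided exact permutation test, p = 0.00794, adjusted p = 0.0317 over 4 comparisons, the smallest p that 5 against 5 can give). Since TPM values of a library add up to a fixed total, a larger share for some entries leaves less for all others. In the set labelled bulk tumour, T026 (CZA+DAV132 with anti-PD-1) stood at 51.3% and T985 (CZA with isotype) at 14.1%, and the other 17 libraries were below 1%. The marker genes went against a whole-tumour label there: a T cell list summed to 4348 to 14655 TPM per library and a fibroblast and fibrosarcoma list to 362 to 2220 TPM, against 3980 to 17602 TPM and 125 to 691 TPM in the CD8 set. These libraries are therefore called by their label only. In bulk libraries, fewer cells of a type and less RNA per cell cannot be told apart.

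Before the comparisons, the members spanned a wide range of levels, which TPM allows to be compared between genes because it is a level per transcript length. In the CD8 set the highest means over 20 libraries were those of Ndufa3 (1097 TPM), Ndufa4 (1028 TPM), Ndufa1 (942 TPM) and Ndufc1 (741 TPM), all small proteins. The lowest were Ndufaf7 (10.2 TPM), Ndufaf5 (13.7 TPM), Ndufaf1 (15.9 TPM) and Ndufs1 (17.5 TPM). Of these 4, 3 are assembly factors and 1 is the largest core subunit. In the libraries labelled bulk tumour the highest means were those of Ndufa4 (447 TPM), Ndufc1 (446 TPM), Ndufa1 (408 TPM) and Ndufa7 (386 TPM). Of the members, 14 shared more than 10% of their 31-base words with transcripts of other genes, led by Ndufaf2 (65.1%), Ndufb6 (34.4%) and Ndufa13 (33.2%), so their estimated levels are uncertain.

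Among CD8 libraries of CZA+DAV132, complex I genes were lower under anti-PD-1 than under isotype antibody. The fall reached adjusted p under 0.05 in 37 of the 45 members and no member rose, against 19.4% of all 12942 genes tested that fell and 4.12% that rose (limma on log2(TPM + 1), Benjamini-Hochberg adjustment over all genes). It took in 27 of 29 accessory subunits, core subunits given below, 5 of 8 assembly factors and Ndufa4. The median change was −1.04 on the log2 scale over the members and −0.34 over all genes tested. In 31 members every anti-PD-1 library was below every isotype library, which 12.1% of all genes tested showed. Highly expressed genes fell more than others in this comparison: among the 1779 genes with a mean of at least 50 TPM, 68.1% fell and the median was −0.91, with 35 of the 36 members at that level falling and a median of −1.13.

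**Figure D1:**
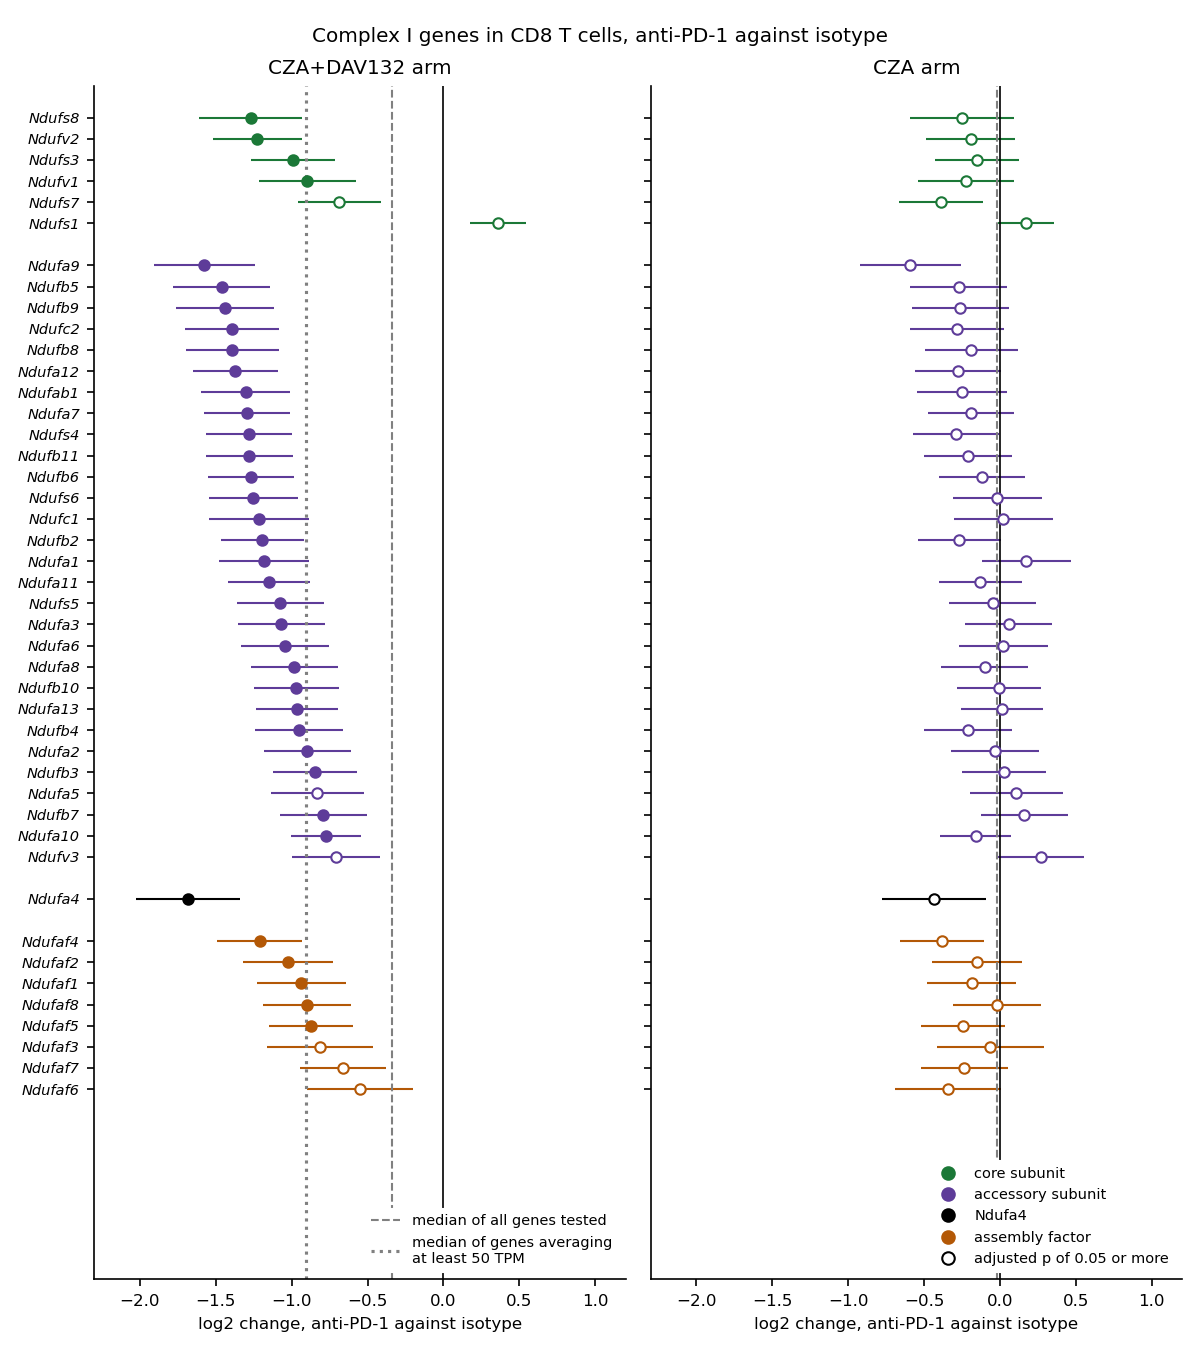
Log2 change ± SE of 44 of the 45 members, for anti-PD-1 relative to isotype, in CD8 libraries of CZA+DAV132 and of CZA. Filled points have an adjusted p under 0.05, the dashed line is the median of all genes tested and the dotted line that of genes averaging at least 50 TPM (−0.91 in CZA+DAV132). In CZA+DAV132 all members shown except Ndufs1 lie below 0, and the median of the 45 members is −1.04. In CZA no point is filled.

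The core subunits did not move as one. Ndufv2, an iron-sulphur subunit beside the flavin site, had 89.3, 150.1, 159, 50.1 and 214 TPM in the 5 anti-PD-1 libraries, against 290.4, 288, 269, 245 and 302 TPM in the 5 isotype libraries. Every anti-PD-1 library was below every isotype library, and Ndufv2 fell by 1.23 ± 0.29 (log2 change ± SE; limma, adjusted p = 0.00896). Ndufs8, which carries clusters on the way to ubiquinone, had 29.1, 121, 108, 40.9 and 135 TPM under anti-PD-1 and 206, 176, 181, 137 and 201 TPM under isotype. The groups again did not overlap, with libraries 16 and 19 lowest, and Ndufs8 fell by 1.27 ± 0.34 (adjusted p = 0.0137). Ndufs3, a structural core subunit of the matrix arm, had 65.9, 77.6, 98.5, 32.9 and 105 TPM under anti-PD-1 and 147, 152, 129.9, 112 and 176 TPM under isotype, and it fell by 0.99 ± 0.28 with no overlap (adjusted p = 0.0159). Ndufv1, which binds NADH and the flavin, had 26.4, 32.0, 46.3, 16.6 and 71.6 TPM under anti-PD-1 and 46.1, 68.0, 71.3, 65.3 and 77.5 TPM under isotype. Library 20 lay within the isotype range and library 18 just above its lowest library, and the fall of 0.90 ± 0.32 passed narrowly (adjusted p = 0.0452) and was lost in 14 of 21 alternative analyses.

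Ndufs7 and Ndufs1 did not pass. They shared 31-base words with more genes than any other member (2758 and 2197 genes, by 2.62% and 6.90% of their words). What this did to their estimated levels was not tested. Ndufs7, a core subunit near the ubiquinone site, had 64.7, 116, 133, 137 and 135 TPM under anti-PD-1 and 171, 184, 202, 143 and 225 TPM under isotype (log2 change −0.69 ± 0.28, adjusted p = 0.0746), although its groups did not overlap. Library 19, with 72.3% of its TPM in repeat entries, was the highest anti-PD-1 library for Ndufs7 but the lowest for Ndufv2, Ndufs3 and Ndufv1. A dinucleotide repeat of at least 31 bases lies in 1 of the 6 transcripts of Ndufs7. The part of repeat reads in its level was not tested. Ndufs1, the largest iron-sulphur subunit, was the only member with a positive value. It had 16.2, 17.7, 26.9, 18.7 and 20.0 TPM under anti-PD-1 and 16.7, 13.8, 12.2, 16.7 and 16.4 TPM under isotype (0.36 ± 0.18, adjusted p = 0.163). All anti-PD-1 libraries but library 16 were above every isotype library. Under 3 alternatives Ndufs1 passed as higher: median-ratio scaling (0.82, adjusted p = 0.0139), rescaling without repeat entries (0.91, adjusted p = 0.0131) and array weights (0.52, adjusted p = 0.0115).

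**Figure D2:**
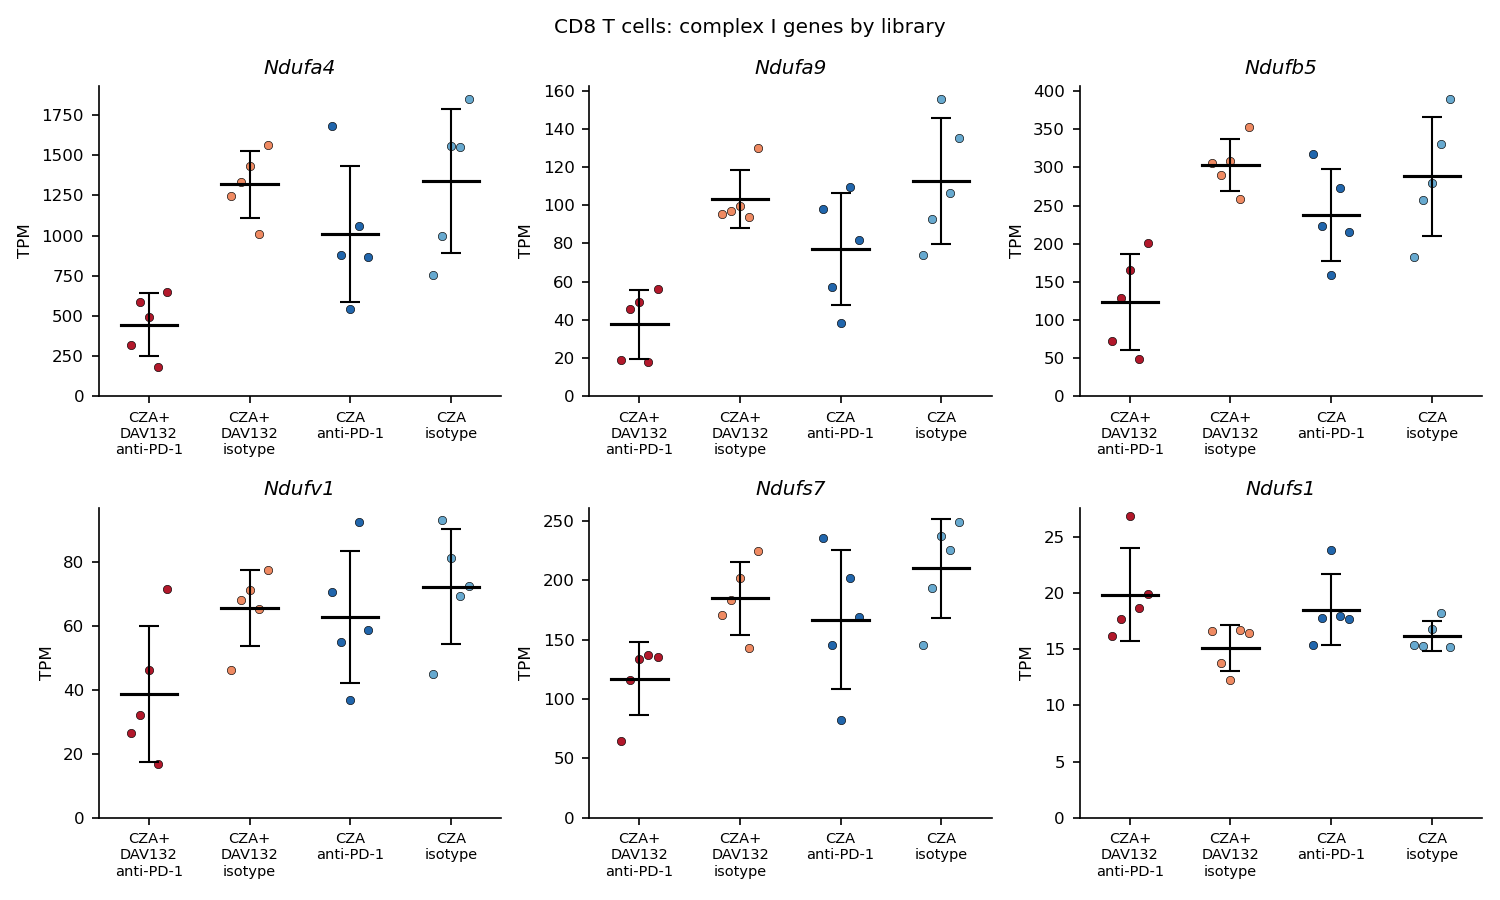
TPM in each of the 20 CD8 libraries for Ndufa4, Ndufa9 and Ndufb5, which fell most, and for the core subunits Ndufv1, Ndufs7 and Ndufs1, by group. Points are libraries, horizontal lines group means and error bars the SD (n = 5). Ndufa4 lies between 181 and 649.9 TPM in CZA+DAV132 with anti-PD-1, below all CZA+DAV132 isotype libraries, while for Ndufs1 these groups overlap.

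The largest falls were those of Ndufa4, Ndufa9 and Ndufb5. Ndufa4 lies on chromosome 6 (GRCm38, chr6:11900292-11907497, minus strand). It had 321, 586, 493, 181 and 649.9 TPM in CZA+DAV132 with anti-PD-1, against 1246, 1334, 1433, 1012 and 1567 TPM in CZA+DAV132 with isotype. Its groups were far apart, with means of 446 ± 193 and 1319 ± 209 TPM, and it fell by 1.69 ± 0.34 on the log2 scale (adjusted p = 0.0068). Ndufa9, at the junction of the matrix and membrane arms (chr6:126821721-126849136, minus strand), had 18.8, 45.5, 49.3, 17.8 and 56.3 TPM under anti-PD-1 and 95.7, 96.8, 99.4, 94.0 and 130.0 TPM under isotype. The highest anti-PD-1 library was well below the lowest isotype library, and Ndufa9 fell by 1.58 ± 0.33 (adjusted p = 0.00715). Ndufb5, a membrane-arm subunit (chr3:32736990-32751566, plus strand), had 72.2, 128, 166, 48.9 and 201 TPM under anti-PD-1 and 306, 289.5, 308, 258 and 353 TPM under isotype. These groups did not overlap either, and Ndufb5 fell by 1.46 ± 0.32 (adjusted p = 0.00771).

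The remaining accessory subunits are given by family. Of the Ndufa and Ndufab1 accessory subunits, 12 of 13 fell, from 0.77 (Ndufa10) to 1.58 (Ndufa9) on the log2 scale. Ndufa12, a matrix-arm subunit related to the assembly factor Ndufaf2, averaged 253 TPM under anti-PD-1 and 598 TPM under isotype and fell by 1.37, and Ndufab1, the mitochondrial acyl carrier protein, averaged 286 and 643 TPM and fell by 1.30. All 10 Ndufb subunits, which sit in the membrane arm, fell, from 0.79 (Ndufb7, adjusted p = 0.0486) to 1.46 (Ndufb5), but Ndufb7 fell in only 7 of the 22 analyses of this comparison. The membrane-arm subunits Ndufc1 and Ndufc2 both fell, by 1.22 and 1.39. The matrix-arm subunits Ndufs4 and Ndufs6 fell by 1.28 and 1.25, and Ndufs5, on the intermembrane-space side of the membrane arm, by 1.08. Ndufs6 averaged 222 TPM under anti-PD-1 and 487 TPM under isotype. The accessory subunits that did not pass were Ndufa5 (−0.83, adjusted p = 0.0529), whose groups did not overlap, and Ndufv3 (−0.71, adjusted p = 0.0768), whose groups did.

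The 8 assembly factors, at means of 10.2 to 50.8 TPM over the CD8 libraries, had a median change of −0.89, against −1.18 for accessory and −0.90 for core subunits. Their roles are known mainly from human cells. Ndufaf4, a partner of Ndufaf3, averaged 9.66 ± 4.01 TPM under anti-PD-1 and 22 ± 3.62 TPM under isotype, fell by 1.21 (adjusted p = 0.00845) and was the only assembly factor whose groups did not overlap. Ndufaf1, which acts early on the membrane arm, averaged 9.63 ± 4.63 and 18.3 ± 5.25 TPM in the same order and fell by 0.94 (adjusted p = 0.0269), a call made in 10 of the 20 analyses that tested it. Ndufaf2 averaged 34.8 ± 16.7 TPM under anti-PD-1 and 64.8 ± 8.75 TPM under isotype and fell by 1.03, with the sequence overlap given above. Ndufaf5, which modifies Ndufs7, averaged 8.38 ± 2.79 and 15.6 ± 2.28 TPM, and Ndufaf8, which stabilises Ndufaf5, averaged 34.0 ± 16.0 and 57.7 ± 7.79 TPM. Both fell, by 0.87 and 0.90 (adjusted p = 0.0282 and 0.0294). The other factors did not pass: Ndufaf3 averaged 22.1 ± 12.9 TPM under anti-PD-1 and 33.9 ± 6.77 TPM under isotype (adjusted p = 0.0960), Ndufaf6 averaged 24.3 ± 13.6 and 31.1 ± 5.34 TPM (adjusted p = 0.261), and Ndufaf7, a methyltransferase, averaged 7.21 ± 3.80 and 10.9 ± 1.60 TPM (adjusted p = 0.0924). In the CZA arm the same 8 factors averaged 10.2 to 50.7 TPM with anti-PD-1 and 12.5 to 54.8 TPM with isotype, and none passed.

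Of the 22 analyses of this comparison, the reported one included, 14 members fell in all: Ndufa4, Ndufa7, Ndufa9, Ndufa12, Ndufab1, Ndufb5, Ndufb6, Ndufb8, Ndufb9, Ndufb11, Ndufc2, Ndufs4, Ndufs6 and Ndufv2. The assembly factor Ndufaf4, too low for the filter of 50 TPM, fell in all 20 analyses that tested it. When only the groups compared entered the fit 16 members fell (6.77% of all genes), and without libraries 16 and 19, the richest in repeat entries, 20 fell (5.20% of all genes). With those libraries left out and only genes averaging at least 50 TPM kept, an analysis chosen after seeing the data, 31 of 38 members fell, beside 40.4% of those genes. Under median-ratio scaling the median of all genes moved to −0.00 and that of the members to −0.57, with 33 members falling and Ndufs1 rising, while over all genes 1830 fell and 1481 rose in place of 2509 and 533. Rescaled without repeat entries, the medians were 0.07 for all genes and −0.48 for the members, with 27 members falling against 1107 genes falling and 1493 rising over the table (8.30% falling).

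The level of the subunits against the rest of each library gives the same comparison without the repeat entries. The 36 core and accessory subunits made up 0.890%, 1.15%, 1.10%, 1.12% and 1.29% of the TPM outside repeat entries in CZA+DAV132 with anti-PD-1, against 1.64%, 1.58%, 1.62%, 1.41% and 1.68% in CZA+DAV132 with isotype. All anti-PD-1 libraries were below all isotype libraries on this scale as well. Against the summed level of ribosomal protein genes the groups overlapped, with ratios of 0.0870, 0.107, 0.0956, 0.130 and 0.103 under anti-PD-1 and 0.139, 0.123, 0.115, 0.108 and 0.146 under isotype, and library 19 was above 3 isotype libraries. On the scale outside repeat entries the CZA libraries held 1.29% to 1.57% with anti-PD-1 and 1.21% to 1.66% with isotype. Within the summed subunit level, the share of Ndufs1 was 0.312% ± 0.174 under anti-PD-1 and 0.103% ± 0.019 under isotype (SD, n = 5 each), while Ndufa9 had 0.493% ± 0.106 and 0.693% ± 0.080.

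**Figure D3:**
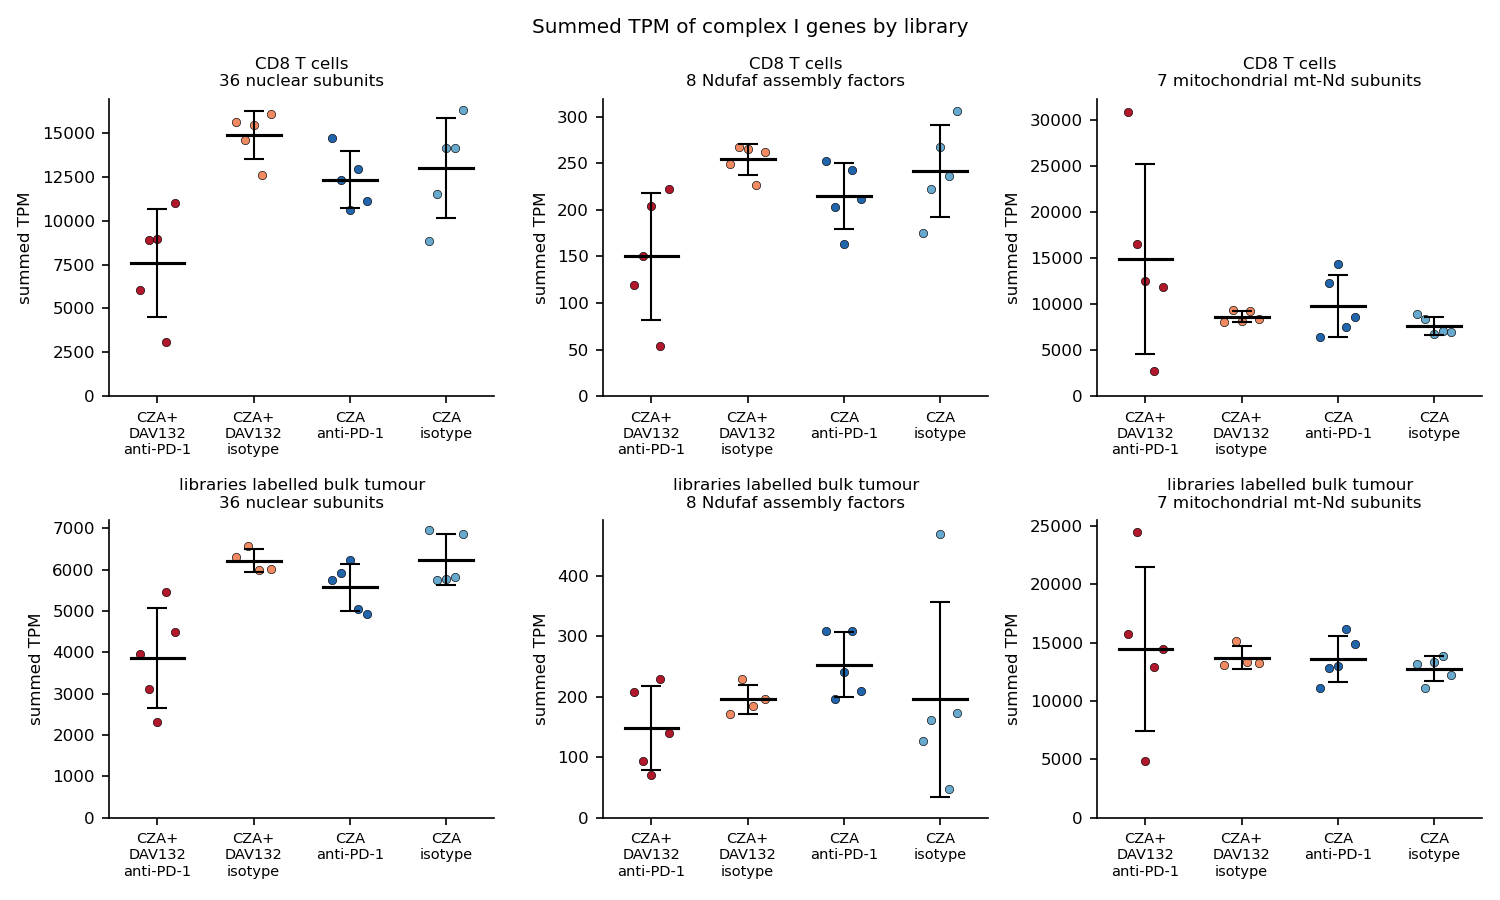
Summed TPM of the 36 core and accessory subunits, of the 8 Ndufaf assembly factors and of the 7 mitochondrially encoded mt-Nd genes, by group, in CD8 libraries (upper row) and in libraries labelled bulk tumour (lower row). Points are libraries, horizontal lines group means and error bars the SD. In CD8 libraries the subunit sum lies between 3061 and 11001 TPM in CZA+DAV132 with anti-PD-1 and between 12628 and 16115 TPM in CZA+DAV132 with isotype.

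The mitochondrially encoded core subunits, counted outside the members, did not follow. None of the 7 mt-Nd genes passed in CZA+DAV132, and their median change was 0.45. The ratio of the summed mt-Nd level to the summed nuclear subunit level was 5.10, 1.85, 1.40, 0.880 and 1.07 in the anti-PD-1 libraries, against 0.515, 0.641, 0.525, 0.729 and 0.519 in the isotype libraries. Every anti-PD-1 library was above every isotype library in this ratio, library 16 by far the most. The mt-Nd sum itself was 2694 TPM in library 19, below every isotype library (8059 to 9375 TPM). In the other anti-PD-1 libraries it was 11811 to 30828 TPM. In the CZA arm the ratio was 0.433 to 1.35 with anti-PD-1 and 0.428 to 0.999 with isotype. The nearest mt-Nd genes to passing were mt-Nd4l (206 ± 138 TPM under anti-PD-1 and 104 ± 15.1 TPM under isotype, adjusted p = 0.226), mt-Nd5 (846 ± 628 and 442 ± 69.9 TPM, adjusted p = 0.343) and mt-Nd6 (3575 ± 2269 and 1997 ± 291 TPM, adjusted p = 0.387).

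**Figure D4:**
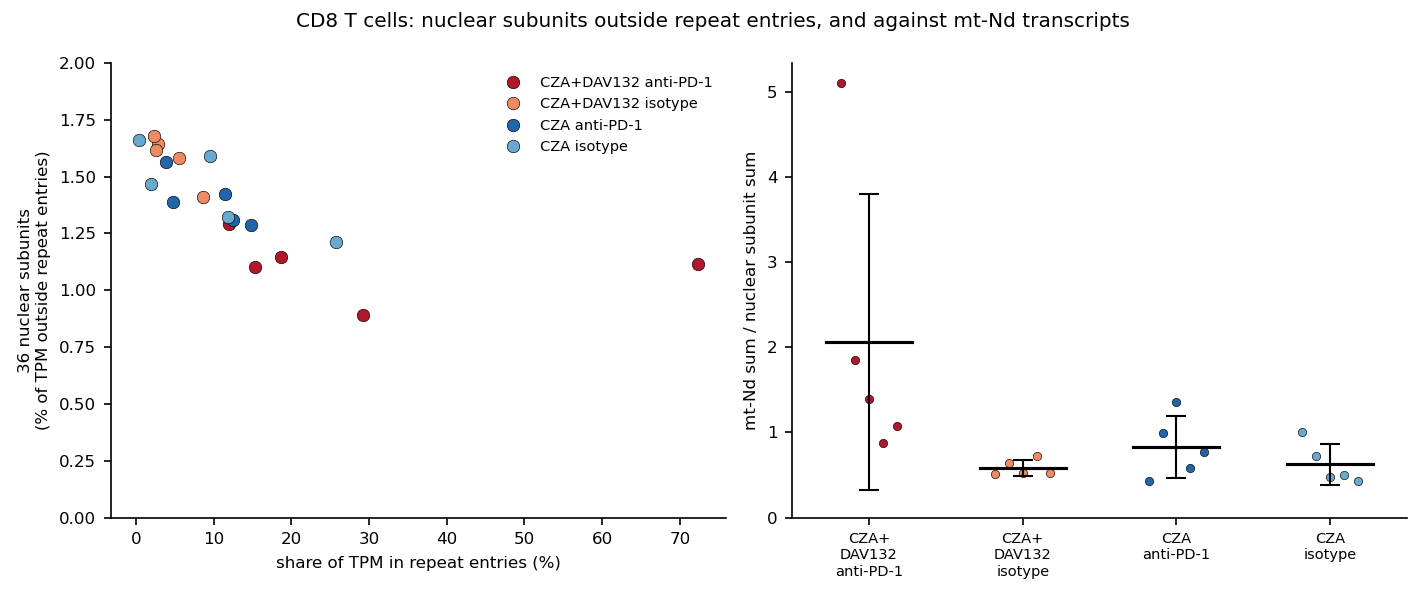
For the CD8 libraries, the percentage of the TPM outside repeat entries held by the 36 subunits (vertical axis) against the percentage of all TPM in repeat entries (horizontal axis), and the ratio of mt-Nd to subunit sums by group, with horizontal lines for means and error bars for the SD (n = 5). Each point is a library. The CZA+DAV132 libraries with anti-PD-1 hold 0.890% to 1.29% of the TPM outside repeat entries, below the 1.41% to 1.68% of those with isotype, and library 19 stands apart at 72.3% on the horizontal axis.

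Genes around complex I were read from lists drawn up with earlier results of these data known. Their counts stand beside the 19.4% of all genes tested that fell and the 4.12% that rose. Among genes averaging at least 50 TPM, 68.1% fell. In the same comparison 7 of 8 genes of complex II, the succinate dehydrogenase that also reduces ubiquinone, fell and none rose. Sdhc averaged 29.7 ± 13.3 TPM under anti-PD-1 and 72.5 ± 13.4 TPM under isotype (−1.37, adjusted p = 0.00844), Sdhaf1, its assembly factor, fell by 1.39, Sdhb by 1.41, and the flavin subunit Sdha did not pass (−0.64, adjusted p = 0.109). The list median was −1.29, against −0.34 over all genes tested. Of 6 measured genes for other enzymes that feed electrons to ubiquinone, 3 fell: Etfa, Etfb and Etfdh, of the electron transfer from fatty acid oxidation, by 1.06, 0.84 and 0.77 (list median −0.62).

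Complex I assembly genes outside the Ndufaf names went both ways, with 2 of 11 falling, near the 19.4% of all genes that fell, and 2 rising, beside 4.12% of all genes (list median −0.65). Timmdc1, of membrane-arm assembly, averaged 22.1 ± 9.01 TPM under anti-PD-1 and 9.26 ± 1.61 TPM under isotype and rose by 1.08 (adjusted p = 0.0122). Tmem126b, of the same assembly step, averaged 138 ± 66.9 and 41.4 ± 18.2 TPM and rose by 1.67 (adjusted p = 0.0178), but 1 of its 2 annotated transcripts holds a dinucleotide repeat of at least 31 bases, the length of a kallisto word, so its level may take up repeat reads and this was not tested. Dmac1, also of membrane-arm assembly, fell by 1.07 (68.6 ± 27.4 and 134 ± 12.4 TPM, adjusted p = 0.0147), and Lyrm2 fell by 1.13. Among the members only Ndufs7 has such a repeat, in 1 of its 6 transcripts.

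Of 11 measured genes of the nuclear control of respiration, 1 fell (list median −0.31), beside 19.4% of all genes. It was Tfam, which packages and transcribes mitochondrial DNA, with 6.13 ± 2.62 TPM under anti-PD-1 and 23.6 ± 7.97 TPM under isotype (−1.82 ± 0.39, adjusted p = 0.00767). Gabpb1 and Gabpa, the parts of nuclear respiratory factor 2, did not pass (adjusted p = 0.0606 and 0.231). Of 15 genes for the citric acid cycle and the outer membrane, 6 fell and none rose (list median −0.75). This stands beside 19.4% of all genes that fell, and 68.1% of genes averaging at least 50 TPM. Among the 6 were Vdac3, a channel of the outer membrane (−1.27), Mdh2, malate dehydrogenase (−1.26), and Hspe1, a mitochondrial chaperonin (−1.07). Citrate synthase, Cs, did not pass (−0.66, adjusted p = 0.0846).

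Markers of other cells were read in the same libraries, and their counts stand beside the 19.4% of all genes that fell and the 4.12% that rose. Of 10 macrophage and monocyte markers 3 fell, and their sum was 56.3 to 280 TPM in CZA+DAV132 with anti-PD-1 and 73.8 to 731 TPM in CZA+DAV132 with isotype. The NK cell list summed to 82.2 to 256 TPM and 334 to 632 TPM in the same order, with 3 of 5 measured genes falling, and the CD4 and regulatory T cell list to 26.1 to 77.0 TPM and 92.8 to 158 TPM, with 2 of 5 falling. The dendritic cell list summed to 13.2 to 39.8 TPM and 38.4 to 99.2 TPM, with 2 of 7 falling and 1 rising, and the T cell list to 3980 to 13274 TPM and 11690 to 14764 TPM, with 2 of 12 falling, a share below that of all genes. Of 4 endothelial markers only 1, Pecam1, was high enough to enter the test, and it rose. The sum of that list was 431 to 2467 TPM against 216 to 381 TPM. Of 2 measured B cell genes 1 rose. No marker of these lists was at 0 in every CD8 library of the arm. The part of these cells in the complex I result was not tested, nor was that of the repeat entries beyond the rescaled values above.

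In the CZA arm, anti-PD-1 left no complex I gene past the threshold. None of the 45 members passed with limma, beside 0% of all genes falling and 0.0155% rising, and none had an unadjusted p under 0.05. No member's groups were apart (0.44% of all genes were lower without overlap and 1.15% higher). The median was −0.16 over the members and −0.02 over all genes. Ndufa4 had 1685, 879.9, 542, 1062 and 869.6 TPM with anti-PD-1 and 754, 995, 1557, 1550 and 1848 TPM with isotype, which overlap widely. The smallest p was that of Ndufa9, with 77.0 ± 29.2 TPM with anti-PD-1 and 113 ± 32.8 TPM with isotype (−0.59 ± 0.33), followed by Ndufs7 (−0.39) and Ndufaf4 (−0.38), all with an adjusted p of 0.997.

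The difference between the arms was itself not past the threshold. The interaction of arm and antibody passed in 0 of 45 members and in 0% of all genes tested. An unadjusted p under 0.05 was seen in 34 members, with no share of all genes at that level to set beside it. The median was −0.98 over the members and −0.37 over all genes. Ndufa1, a small membrane-arm subunit, was nearest (−1.36 ± 0.42, adjusted p = 0.290), followed by Ndufs6 (−1.24) and Ndufb6 (−1.15) at the same adjusted p. The fall in CZA+DAV132 is therefore not shown to differ from the change in CZA.

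Under anti-PD-1, 44 of the 45 members had lower mean log2 levels in CD8 libraries of CZA+DAV132 than of CZA, without passing. The median change of all genes tested was negative as well. With limma 0 of 45 members passed, beside 0.0386% of all genes, and the smallest adjusted p was 0.0683. An unadjusted p under 0.05 was seen in 39 members, again with no share of all genes at that level to set beside it. Ndufa4 averaged 446 ± 193 TPM in CZA+DAV132 and 1008 ± 423 TPM in CZA (−1.22 ± 0.34), Ndufb8, of the membrane arm, 229 ± 91.1 and 447 ± 90.4 TPM (−1.07), and Ndufa13, of the membrane arm and also known from cell death, 151 ± 66.2 and 269 ± 32.4 TPM (−0.95). Ndufs6 had 210.0, 260.0, 269.5, 80.4 and 289.9 TPM in CZA+DAV132 and 548, 398, 321, 432 and 394 TPM in CZA (−1.02), and was the only member without overlap, which 2.58% of all genes showed. The median was −0.82 over the members and −0.40 over all genes. The count was unstable: 39 members fell without library 20 of CZA+DAV132 (29.2% of all genes), 25 without library 18 of CZA+DAV132 (17.0%) and 16 without library 8 of CZA (10.3%), and 20 fell among genes averaging at least 5 TPM (17.5% of those genes), 29 of 36 among genes averaging at least 50 TPM (59.6%) and 8 with array weights (3.69% of all genes). The share of TPM in repeat entries moved along, at 29.5% ± 24.8 in CZA+DAV132 and 9.48% ± 4.88 in CZA (exact permutation p = 0.0238, adjusted p = 0.0476), and its part in the difference was not tested.

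Under isotype antibody, CD8 libraries of CZA+DAV132 and CZA did not differ past the threshold in any member. With limma 0 of 45 passed, beside 0% of all genes, and 0 had an unadjusted p under 0.05. The 3 members of smallest p were Ndufa1 (1234 ± 91.6 TPM in CZA+DAV132 and 916 ± 220 TPM in CZA, 0.46 ± 0.29), Ndufa3 (0.37) and Ndufc1 (0.42), each with an adjusted p of 1.00. The members' median was 0.14 and that of all genes −0.06. Over the 4 CD8 groups, then, the means of Ndufa4 in rising order were 446 ± 193 TPM (CZA+DAV132 with anti-PD-1), 1008 ± 423 TPM (CZA with anti-PD-1), 1319 ± 209 TPM (CZA+DAV132 with isotype) and 1341 ± 451 TPM (CZA with isotype), each of which overlaps its neighbour in this order. CZA+DAV132 with anti-PD-1 did not overlap either isotype group.

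Promoters are shown for Ndufa4 and Ndufb5, which are among the members with the largest falls, and for Ndufb6, which holds several known motifs. RefSeq (GRCm38.p6) gave a promoter for 40 of the 45 members, read here over the 250 bases before RefSeq's start. That start can lie inside the GENCODE gene, so the windows of Ndufa4 and Ndufb5 run into the gene coordinates given above. Nuclear respiration genes are known for promoters with sites of nuclear respiratory factors. The searched letters, on both strands, were CCGGAAG (ETS core, bound by nuclear respiratory factor 2), GCGCATG (part of a site of nuclear respiratory factor 1), CCAAT (bound by NF-Y), GGGCGG (GC box), AAGATGG (YY1 core) and AAGGTCA (part of a site of oestrogen-related receptors). Capitals mark matches, the sequences run 5′ to 3′ on the gene's strand, and the windows are chr6:11907451-11907700 (minus) for Ndufa4, chr3:32736813-32737062 (plus) for Ndufb5 and chr4:40279422-40279671 (minus) for Ndufb6.
Ndufa4: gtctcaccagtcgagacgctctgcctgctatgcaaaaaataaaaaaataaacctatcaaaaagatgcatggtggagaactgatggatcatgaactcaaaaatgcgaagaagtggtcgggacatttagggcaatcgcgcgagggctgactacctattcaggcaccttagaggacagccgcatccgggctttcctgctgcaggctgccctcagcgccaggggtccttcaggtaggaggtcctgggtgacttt
Ndufb5: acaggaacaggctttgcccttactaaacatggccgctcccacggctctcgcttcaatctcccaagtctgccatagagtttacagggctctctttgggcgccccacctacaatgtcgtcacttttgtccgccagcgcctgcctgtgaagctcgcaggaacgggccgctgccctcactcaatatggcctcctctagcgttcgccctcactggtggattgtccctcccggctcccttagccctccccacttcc
Ndufb6: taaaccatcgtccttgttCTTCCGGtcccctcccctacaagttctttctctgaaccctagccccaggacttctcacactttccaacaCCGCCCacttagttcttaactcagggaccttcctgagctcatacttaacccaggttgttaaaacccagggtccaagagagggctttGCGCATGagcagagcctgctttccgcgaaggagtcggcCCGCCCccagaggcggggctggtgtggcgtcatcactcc
The windows of Ndufa4 and Ndufb5, and that of Ndufa9, hold none of these letters. The window of Ndufb6, a membrane-arm subunit that averaged 164 TPM under anti-PD-1 and 366 TPM under isotype in CZA+DAV132 and fell by 1.27, holds the ETS core, GCGCATG and GC boxes.

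Over the members, the ETS core was in 5 of 40 promoters (12.5%), against 7.05% of all 27025 promoters of that length. GCGCATG was in 5 (12.5%, against 3.32%), CCAAT in 14 (35.0%, against 34.5%), the GC box in 19 (47.5%, against 32.9%), AAGGTCA in 3 (7.50%, against 4.05%) and AAGATGG in 0 (against 4.53%). A match is a run of letters in the reference, and the series holds no data on binding.

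In the libraries labelled bulk tumour, 1 member fell under anti-PD-1 in the CZA+DAV132 arm and none rose, beside 0.21% of all 13326 genes tested that fell and 0.03% that rose. It was Ndufa4 (limma adjusted p = 0.0489), now placed in complex IV, and no core subunit, accessory subunit or assembly factor passed. Ndufa4 had 204, 154, 129, 270.0 and 194 TPM with anti-PD-1, against 435, 474, 608 and 425 TPM with isotype, and means of 190 ± 54.0 (n = 5) and 485 ± 84.4 TPM (n = 4). Every anti-PD-1 library was below every isotype library, and Ndufa4 fell by 1.38 ± 0.29 on the log2 scale. The call was lost on leaving out any library of these groups except T029 (adjusted p from 0.0655 to 0.215), and without T026 and T985 (−1.25, adjusted p = 0.0767). Without T029, 3 members passed, a count with no share of all genes beside it. In 9 members all anti-PD-1 libraries were below all isotype libraries, against 4.43% of all genes: Ndufa4, Ndufa7, Ndufa12, Ndufa13, Ndufb9, Ndufb11, Ndufc2, Ndufs6 and Ndufv1. The nearest to passing were Ndufa7, a matrix-arm subunit, with 186, 71.7, 142, 299 and 185 TPM with anti-PD-1 and 392, 414, 379.7 and 438 TPM with isotype (−1.33, adjusted p = 0.0884), and Ndufs6 (102 ± 32.7 and 264 ± 81.9 TPM, −1.36, adjusted p = 0.115). The median was −0.56 over the members and −0.15 over all genes.

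Summed over the 36 subunits, the level was 3951, 3114, 2319, 5457 and 4487 TPM in CZA+DAV132 with anti-PD-1, against 6307, 6571, 5984 and 6019 TPM in CZA+DAV132 with isotype. As a share of the TPM outside repeat entries this was 0.323% to 0.556% with anti-PD-1 and 0.607% to 0.669% with isotype. All anti-PD-1 libraries were below all isotype libraries on both scales. As a ratio to the summed ribosomal protein level the groups overlapped, at 0.0311 to 0.0450 with anti-PD-1 and 0.0388 to 0.0547 with isotype. T026, with 51.3% of its TPM in repeat entries, was lowest in summed TPM, and T023 was lowest in the share outside them. The individual core subunits varied within groups. Ndufv1 had 33.0, 16.8, 22, 72.4 and 54.5 TPM in CZA+DAV132 with anti-PD-1, against 164, 79.5, 82.3 and 101 TPM with isotype, without overlap but with an adjusted p of 0.500. Ndufs1 had 38.6, 39.2, 30, 44.5 and 44.9 TPM with anti-PD-1 and 27.8, 48.9, 53.1 and 29.8 TPM with isotype, and these groups overlapped. Other core subunits spanned 63.8 to 155 TPM and 134 to 199 TPM (Ndufs3), 38.8 to 59.7 and 38.3 to 92.6 (Ndufs7), 9.79 to 44.2 and 39.8 to 74.1 (Ndufs8) and 49.4 to 132 and 78.3 to 152 (Ndufv2), with anti-PD-1 and then with isotype, and these overlapped. In CZA with isotype, T987 stood at 5.16 TPM for Ndufs1, and T986 at 4.03 TPM for Ndufv1, while the other libraries of that group held 16.9 to 49.3 and 45.5 to 178 TPM for these genes.

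**Figure D5:**
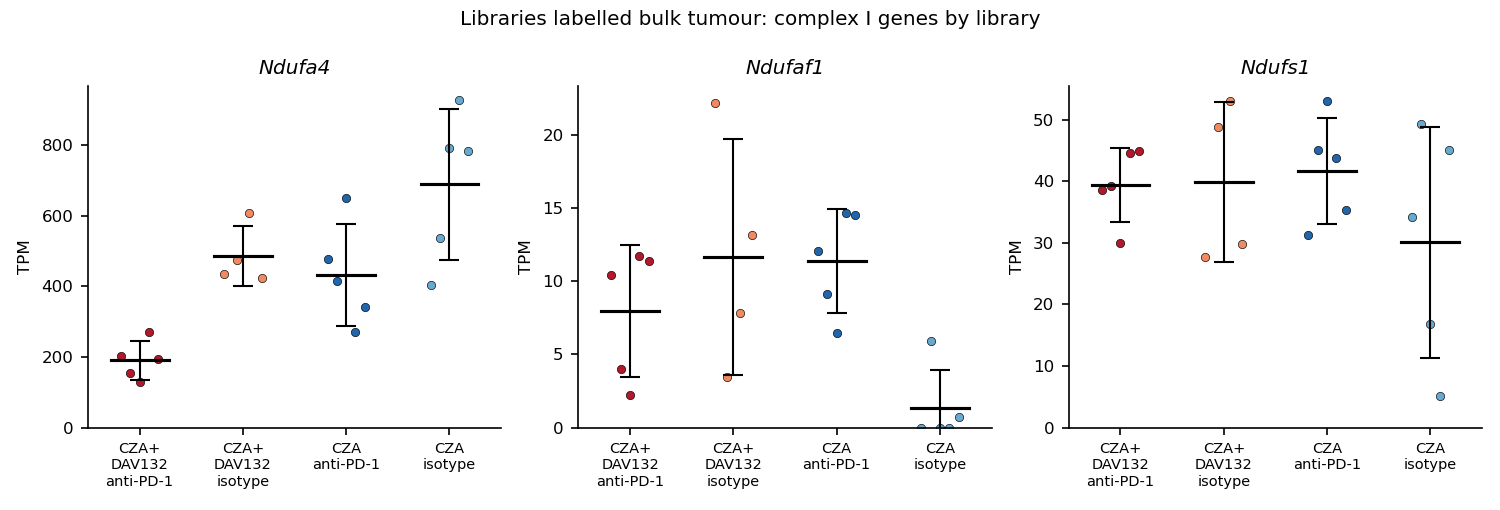
TPM of Ndufa4, Ndufaf1 and Ndufs1 in each of the 19 libraries labelled bulk tumour, by group. Points are libraries, horizontal lines group means and error bars the SD (n = 5, and 4 for CZA+DAV132 with isotype). Ndufa4 lies between 129 and 270.0 TPM in CZA+DAV132 with anti-PD-1 and between 425 and 608 TPM in CZA+DAV132 with isotype, and Ndufaf1 is listed at 0 in 3 CZA libraries with isotype.

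In the CZA arm of these libraries, 1 member rose under anti-PD-1, the assembly factor Ndufaf1 (chr2:119655446-119662827, minus strand), and none fell, beside 0.278% of all genes that rose and 0.0075% that fell. It had 12.1, 9.10, 6.45, 14.6 and 14.5 TPM with anti-PD-1, against 0, 5.90, 0, 0 and 0.758 TPM with isotype, where 3 libraries are listed at 0 (limma adjusted p = 0.0438). Every anti-PD-1 library was above every isotype library, which 2.09% of all genes showed, and since part of the isotype libraries are at 0 no fold is given. The call was lost without T982, T984, T986, T987, T988, T989 or T990 in turn (adjusted p from 0.0620 to 0.0981), and in CD8 cells of the same arm Ndufaf1 averaged 16.7 ± 4.10 TPM with anti-PD-1 and 18.9 ± 3.23 TPM with isotype. Ndufa7 had 325, 336, 396, 298 and 196 TPM with anti-PD-1 and 738, 409, 535, 595 and 1002 TPM with isotype. It was the only member lower without overlap (0.308% of all genes), at −1.05 and an adjusted p of 0.146. The median was 0.13 over the members and 0.25 over all genes.

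The other contrasts in these libraries gave no member past the threshold. Under anti-PD-1, CZA+DAV132 against CZA gave 0 of 45 with limma, beside 0% of all genes, and 10 at an unadjusted p under 0.05. Ndufa4 was nearest, with 190 ± 54.0 TPM in CZA+DAV132 and 432 ± 145 TPM in CZA (−1.16, adjusted p = 0.257) and no overlap, which Ndufs6 also showed (1.91% of all genes), followed by Ndufa1 (−0.85) and Ndufa7 (−0.91). Under isotype, 0 passed, beside 0.113% of all genes that were higher, and 7 had an unadjusted p under 0.05. Ndufaf1 had 22.2, 3.44, 7.81 and 13.2 TPM in CZA+DAV132 (adjusted p = 0.0838) against the CZA values above, followed by Ndufb8 (310 ± 94.3 TPM in CZA+DAV132 and 159 ± 50.6 TPM in CZA, 0.96) and Ndufs5, with 49.6, 97.3, 87.7 and 45.3 TPM in CZA+DAV132 and 32.5, 42.4, 43.3, 7.40 and 0 TPM in CZA, the only member without overlap (1.85% of all genes). The interaction passed for 0 members, beside 0.0450% of all genes that were lower, and 8 had an unadjusted p under 0.05. No share of all genes stands beside these unadjusted counts. The members nearest to passing the interaction were Ndufaf1 (adjusted p = 0.270), Ndufb8 (−1.53) and Ndufaf8 (−1.41).

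Besides Ndufaf1, given above, most assembly factors in these libraries spread widely within groups, while Ndufaf8 did so mainly in CZA with isotype. Ndufaf8 averaged 22.2 ± 6.68 TPM in CZA+DAV132 with anti-PD-1, 30.7 ± 4.22 TPM in CZA+DAV132 with isotype, 32.9 ± 5.16 TPM in CZA with anti-PD-1 and 19.9 ± 13.5 TPM in CZA with isotype. Ndufaf7 averaged 9.78 ± 5.82, 17.1 ± 6.03, 12.6 ± 7.60 and 8.71 ± 6.12 TPM in the same order of groups, and Ndufaf4 8.24 ± 3.98, 13.7 ± 7.20, 13.5 ± 11.7 and 4.93 ± 6.27 TPM. The others were listed at 0 in part of the CZA libraries with isotype. Ndufaf2 had 38.6, 63.3, 283, 0 and 118 TPM there, Ndufaf3 31.3, 47.4, 0.212, 20.7 and 0 TPM, Ndufaf5 38.2, 3.78, 45.8, 0 and 8.82 TPM and Ndufaf6 0.652, 1.21, 103, 0 and 0 TPM (T983, T985, T986, T987 and T991 in turn). In the remaining 3 groups, in the order above, Ndufaf2 averaged 66.8 ± 46.4, 89.8 ± 34.4 and 106 ± 59.5 TPM and Ndufaf3 14.8 ± 7.21, 12.3 ± 9.59 and 16.3 ± 5.29 TPM. Ndufaf5 spanned 4.01 to 10.6, 1.31 to 23.6 and 1.97 to 49.0 TPM there, with medians of 5.89, 7.17 and 12.2 TPM and T988 of CZA with anti-PD-1 highest. Ndufaf6 spanned 2.90 to 20.9, 2.65 to 17.7 and 0.807 to 127 TPM, with medians of 14.0, 10.4 and 19.9 TPM and T989 of CZA with anti-PD-1 far above the others. T987 was at 0 for 4 of the 8 factors, and no contrast passed for any factor but Ndufaf1.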

How the data were processed

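The values are TPM, deposited by the authors in 2 tables, 1 per set. The tool was kallisto 0.45 on mouse build GRCm38, per the submitters' processing notes, and its annotation is not given in the sources used here. Per the labels' protocols, total RNA was depleted of ribosomal RNA and made into strand-specific libraries. TPM holds no read counts, so the depth is unknown and no counting interval is given. Kallisto shares reads among like transcripts, so genes with near-identical copies are uncertain.

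Coordinates and sequence overlaps come from GENCODE M21 by symbol (27857 of 28023 matched). Repeat entries are 62 genes found by sequence alone: predicted genes whose transcripts have at least 50% of their 12-base words recurring, and genes sharing at least 30% of their words with those. Tables were fitted separately. A gene entered the test when 4 or more libraries of its set had 1 TPM or more. The model held 4 group means on log2(TPM + 1), which understates the change of low genes (limma 3.58.1 in R 4.3.3, empirical Bayes with trend). P-values are two-sided, Benjamini-Hochberg adjusted over all genes tested, and called under 0.05. Exact permutation tests used SciPy 1.17.1. The fit was tested on simulated data with independent noise for each gene. These held no shift shared by all genes of a library, such as a larger repeat share gives, so the test does not cover that case.

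Alternatives were a pseudocount of 0.1, no filter, a mean of at least 5 or 50 TPM, only the groups compared, other scalings, array weights, the repeat-rich pair left out, and each library left out. Named are core subunits, Ndufa4, Ndufa4l2, all assembly factors, the 3 largest changes or, with none called, the 3 smallest p-values, members not called in the comparison with most calls, and up to 3 genes per surrounding list. The members and lists were chosen with earlier results of these data known. The values of 1 member, counted in every total, are not reported here.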

Additional observations from a re-analysis of the deposited data

Results flagged for a closer look

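Of 128 group values tested for a library far from the others of its group, 9 were so, and chance gives about 1 in 20. In CD8 cells of CZA+DAV132 with anti-PD-1, library 19 held 72.3% of its TPM in repeat entries, and library 16 had a ratio of mt-Nd to nuclear subunit levels of 5.10 and Ndufs7 at 64.7 TPM, each far from the other 4 libraries. In CZA+DAV132 with isotype, library 15 had Ndufa9 at 130.0 TPM, above the others.

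In the libraries labelled bulk tumour, T026 of CZA+DAV132 with anti-PD-1 held 51.3% of its TPM in repeat entries. In CZA with anti-PD-1, T988 held 0.852%, a small share but above the others of the group, and had Ndufa9 at 102 TPM. In CZA with isotype, T985 held 14.1% in repeat entries and had Ndufaf1 at 5.90 TPM, against 0 to 0.758 TPM in the other 4 libraries. No test of a difference between arms passed for a member.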

How the results depend on the processing

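In CD8 cells of CZA+DAV132, the 37 members called lower under anti-PD-1 became 16 with only the groups compared in the fit (6.77% of all genes). They became 20 without libraries 16 and 19 (5.20% of all genes), and 29 to 41 on leaving out each library in turn. Under the other alternatives 27 to 38 members fell, and the cause of the smaller counts was not tested. The share of all genes moved too, to 8.30% when rescaled without repeat entries and to 68.1% of genes averaging at least 50 TPM. Counts in this section with no such share beside them are not results about the members in particular. With a mean of at least 50 TPM and libraries 16 and 19 left out together, chosen after seeing the data, 31 of 38 members tested fell (40.4% of those genes). CZA+DAV132 against CZA under anti-PD-1 gave 0 members, but 20 at a mean of at least 5 TPM (17.5% of those genes) and 29 at 50 TPM (59.6% of those genes). It gave 8 with array weights (3.69% of all genes) and 0 to 39 on leaving out each library, the 39 beside 29.2% of all genes. The other CD8 contrasts stayed at 0 in each leave-one-out fit. In the libraries labelled bulk tumour, the 1 member called in CZA+DAV132 became 0 with only the groups compared, without a filter, with median-ratio scaling, rescaled without mitochondrial genes and small RNAs, or without T026 and T985. It became 5 at a mean of at least 50 TPM (10.3% of those genes), 3 with array weights and 4 with that filter and T026 and T985 left out, and 0 to 3 on leaving out each library. The 1 member called in CZA became 0 with only the groups compared, without a filter, at a mean of at least 5 TPM and with array weights. It became 0 to 1 on leaving out each library. That member, Ndufaf1, had a mean of 7.88 TPM, so the filter of 50 TPM left it untested, alone or with T026 and T985 left out. The count was 0 there as well. CZA+DAV132 against CZA there gave 1 at 50 TPM and 1 with array weights under anti-PD-1 (0 to 0 on leaving out each library), and 1 without T026 and T985 under isotype (0 to 1, the 1 without T985). The difference in repeat share in CZA+DAV132 ranged from 14.4 to 29.5 percentage points in CD8 cells and from 0.0455 to 12.8 in the other set, where it rested on T026. No paired analysis was possible because no replicate number is shared between groups.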
